A study of Mus musculus with 768 samples.

Results

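The 6 genes described here belong to the greater epithelial ridge (GER) of the mouse cochlea and were followed through organoid culture: the connexin genes Gjb2, Gjb6 and Gja1, the purinergic receptor gene P2ry1, the chloride channel gene Ano1 and the potassium channel gene Kcnj10. They were chosen by symbol, and all 6 were present once among the 52636 genes of both deposited tables. GER cells had been sorted from postnatal day 2 mice carrying the Sox2-GFP, Fgfr3-CreERT2 and Ai14-tdTomato alleles and grown as organoids. Every group carried the same alleles and was given the same medium, with N-2, B-27, ampicillin, EGF, FGF2, IGF1, CHIR99021, valproic acid, 2-phospho-L-ascorbic acid and the TGFβ receptor inhibitor 616452, and in the labels the groups differ only by time in culture. Organoids were dissociated on day 1, 3 or 7, and full-length cDNA of hand-picked cells was sequenced by the SmartSeq2 method. After 57 poor cells were left out 711 remained, 182 from 3 cultures of day 1, 228 from 3 cultures of day 3 and 301 from 5 cultures of day 7.

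A culture here is the set of cells that share a day and a replicate number in the labels. Nothing in the labels says whether the cultures came from separate litters or sorts, so the p-values measure only the spread between these cultures. The summed depth was between 26391412 and 72483565 reads per culture. Cells were picked after sorting for the reporters and growth in a mitogenic medium, and they are not a sample of the ridge in the animal.

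The GER, also called Kölliker's organ, is the transient epithelium that lies medial to the developing hair cells. Before the onset of hearing its supporting cells release ATP through connexin hemichannels, the ATP acts on P2Y1 receptors of the same and neighbouring cells, and calcium released from internal stores opens the calcium-activated chloride channel encoded by Ano1. Chloride and potassium leave the cells, and the potassium depolarises nearby inner hair cells, which gives the spontaneous bursts of activity seen in the auditory nerve before hearing. Connexin channels then spread calcium waves between cells and, in the mature cochlea, take part in returning potassium to the endolymph.

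Gjb2 and Gjb6, which encode the connexins that form most gap junctions of cochlear supporting cells, are neighbours on chromosome 14. In GRCm38, Gjb2 lies at chr14:57098600-57104702 and Gjb6 at chr14:57123303-57133611, both on the minus strand and 18600 bases apart. Gja1, a connexin gene of many epithelia and of fibroblasts and glia, lies at chr10:56377330-56402513 on the plus strand. The 250 bases before the start of these 3 connexin genes are shown. They are the RefSeq sequences of GRCm38.p6, read 5′ to 3′ on the strand of the gene, with capitals marking a GC box (GGGCGG or its reverse complement CCGCCC) or an AP-1 motif (TGANTCA, which is its own reverse complement).
Gjb2, chr14:57104703-57104952, minus strand: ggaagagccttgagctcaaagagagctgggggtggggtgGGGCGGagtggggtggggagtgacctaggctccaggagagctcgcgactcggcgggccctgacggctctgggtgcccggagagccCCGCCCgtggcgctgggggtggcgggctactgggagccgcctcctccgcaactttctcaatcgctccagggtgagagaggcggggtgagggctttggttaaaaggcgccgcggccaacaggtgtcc
Gjb6, chr14:57133612-57133861, minus strand: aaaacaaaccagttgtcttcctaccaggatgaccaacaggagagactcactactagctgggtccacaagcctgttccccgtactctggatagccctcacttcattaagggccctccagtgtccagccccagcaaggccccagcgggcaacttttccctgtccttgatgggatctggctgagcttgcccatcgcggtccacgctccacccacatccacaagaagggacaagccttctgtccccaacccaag
Gja1, chr10:56377050-56377299, plus strand: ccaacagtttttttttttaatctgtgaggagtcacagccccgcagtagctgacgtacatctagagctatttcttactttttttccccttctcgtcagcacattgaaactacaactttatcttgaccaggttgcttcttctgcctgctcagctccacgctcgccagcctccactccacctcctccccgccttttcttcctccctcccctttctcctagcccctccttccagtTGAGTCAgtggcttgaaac

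The stretch before Gjb2 held 2 GC boxes and had a GC content of 69.2%. The stretches before Gjb6 and Gja1 held 0 GC boxes, with GC contents of 56.8% and 50.0%. Gja1 had 1 AP-1 motif, which starts 19 bases before the transcription start, and the other 2 had none. Among 32851 RefSeq stretches of this length, 32.7% held a GC box and 6.75% held the AP-1 motif, and the median GC content was 52.4%. The TATA motif searched (TATAAA, both strands) was found in none of the 3 and in 12.4% of all stretches. These matches describe letters in the window and were not tested against any measurement.

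Gjb2 was the highest of the 6 genes in all 11 cultures when CPM, the reads of a gene scaled to library size, were divided by the length of the longest coding transcript. On this per-kilobase scale the day 1 mean levels were 113 ± 30.6 CPM per kb for Gjb2, 33.4 ± 20.3 for Gjb6, 15.0 ± 2.28 for Gja1, 9.49 ± 0.920 for Ano1, 6.40 ± 2.06 for P2ry1 and 0.445 ± 0.268 for Kcnj10 (SD, n = 3). Over all cultures the order of mean levels per kb was Gjb2, Gjb6, Gja1, P2ry1, Ano1 and Kcnj10. Gjb6 and Gja1 did not separate: Gjb6 was the higher of both in 6 of 11 cultures. P2ry1 and Ano1 traded places, since Ano1 was the higher per kb in all 3 cultures of day 1 and P2ry1 was the higher in all 8 later cultures. Gja1 exceeded P2ry1, and Ano1 exceeded Kcnj10, in 11 of 11 cultures.

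Gjb2 encodes connexin 26, variants of which are a leading cause of inherited deafness. Its level was 189, 325 and 305 CPM in the 3 cultures of day 1, 307, 168 and 244 CPM on day 3, and 926, 1306, 356, 431 and 648 CPM in cultures 1 to 5 of day 7. Every culture of day 7 lay above every earlier culture, but the day 7 cultures themselves ranged from little above day 3 to several times higher. The mean was 273 ± 73.6 CPM on day 1, 239.9 ± 69.3 on day 3 (SD, n = 3 each) and 734 ± 389 on day 7 (SD, n = 5). By edgeR's quasi-likelihood test the log2 fold change of day 7 against day 1 was 1.43 (SE 0.40) and missed the threshold at an adjusted p of 0.0508. Against day 3 it was 1.61 (SE 0.41, adjusted p = 0.0964 by edgeR). In edgeR without day 7 culture 3 the adjusted p was 0.0344 against day 1 and 0.0481 against day 3, and without day 7 culture 4 it was 0.0479 against day 1.

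Gjb6 encodes connexin 30, the usual partner of connexin 26 in mixed channels. It was read at 24.2, 108.7 and 78.1 CPM on day 1, at 43.2, 34.7 and 68.8 CPM on day 3, and at 151.8, 297.8, 38.0, 39.4 and 163.3 CPM in the cultures of day 7. All 3 days overlapped, and day 7 held both the highest culture and 2 cultures below the day 1 mean. The means were 70.3 ± 42.8, 48.9 ± 17.8 (SD, n = 3 each) and 138 ± 107 CPM (SD, n = 5). The log2 fold change of day 7 was 0.97 against day 1 (SE 0.65, edgeR adjusted p = 0.405) and 1.5 against day 3 (SE 0.67, edgeR adjusted p = 0.402).

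Gja1 encodes connexin 43, a connexin regulated through growth factor and cell cycle kinases. Its level was 49.9, 39.5 and 53.5 CPM on day 1 and 104, 55.0 and 77.1 CPM on day 3. On day 7 it was 92.5, 104, 99.4, 94.6 and 71.4 CPM. The later cultures all lay above day 1, while days 3 and 7 overlapped. Gja1 was higher on day 7 than on day 1 by 0.96 on the log2 scale (SE 0.23, edgeR adjusted p = 0.0265), and the mean rose from 47.6 ± 7.24 CPM (SD, n = 3) to 92.5 ± 12.7 CPM (SD, n = 5). The difference of day 3 against day 1 was 0.73 (SE 0.25), did not pass at an adjusted p of 0.381 by edgeR, and its mean was 78.8 ± 24.6 CPM (SD, n = 3). The day 7 call was lost without any 1 of several cultures: the edgeR adjusted p was 0.0908, 0.103 and 0.0598 without day 1 cultures 1, 2 and 3, 0.0614 without day 7 culture 3 and 0.0551 without day 7 culture 4.

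P2ry1 encodes the Gq-coupled receptor through which released ATP and ADP raise calcium in the ridge. It was read at 32.9, 24.9 and 16.8 CPM on day 1, at 17.1, 20.3 and 18.5 CPM on day 3, and at 85.2, 49.7, 25.5, 17.5 and 63.7 CPM on day 7. Day 7 cultures 1, 2 and 5 exceeded all earlier ones, and cultures 3 and 4 lay inside the earlier range. The means were 24.9 ± 8.0, 18.6 ± 1.61 (SD, n = 3 each) and 48.3 ± 27.7 CPM (SD, n = 5). Neither difference passed: the log2 fold change was 0.96 against day 1 (SE 0.45, edgeR adjusted p = 0.217) and 1.37 against day 3 (SE 0.46, edgeR adjusted p = 0.226). P2ry1 was the only one of the 6 genes with estimated counts that were not whole, in 27.2% of the 316 cells with a value above 0, as happens where the authors' counting divides reads between features, and its level is less certain for that. The other members, the 3 connexin genes among them, had none.

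Ano1 encodes the chloride channel that drives the osmotic shrinkage and potassium release of ridge cells. It was read at 39.4, 47.8 and 43.3 CPM on day 1, at 18.2, 7.21 and 10.8 CPM on day 3, and at 5.76, 16.2, 0.777, 2.36 and 11.3 CPM on day 7. The 3 cultures of day 1 lay close together and above all 8 later cultures, and days 3 and 7 overlapped. Ano1 fell by 2.58 on the log2 scale between day 1 and day 7 (SE 0.69, edgeR adjusted p = 0.0417), from 43.5 ± 4.22 CPM (SD, n = 3) to 7.28 ± 6.42 CPM (SD, n = 5). The day 3 mean was 12.1 ± 5.60 CPM (SD, n = 3), and its log2 difference of -1.85 from day 1 (SE 0.80) did not pass, with an adjusted p of 0.516 by edgeR. Without day 1 cultures 1, 2 and 3 the edgeR adjusted p of day 7 against day 1 was 0.0948, 0.104 and 0.0964. It was 0.0529 and 0.0610 without day 3 cultures 2 and 3, and 0.0730 and 0.0664 without day 7 cultures 1 and 4. Without any 1 of the 11 cultures the log2 change lay between -3.11 and -2.35.

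Kcnj10 encodes the inward rectifier channel Kir4.1, best known in the cochlea from strial intermediate cells, where it sets the endocochlear potential, and from glia and some supporting cells. It stayed near the limit of detection, at 0.930, 2.47 and 3.82 CPM on day 1, at 0.691, 2.01 and 2.84 CPM on day 3, and at 0, 0.429, 0.343, 0.766 and 1.38 CPM on day 7. The value of 0 in day 7 culture 1 allows a level of up to 0.0907 CPM (3 reads of the culture's total, counting error only). The days overlapped, and the log2 difference of day 7 from day 1 was -2.03 (SE 1.11, edgeR adjusted p = 0.296). Of the 5 pigment cell markers, Dct, Tyr, Tyrp1 and Mlana were at 0 in every culture. The fifth marker, Pmel, left the list's summed level between 0 and 5.74 CPM. Whether the same cells held Pmel and Kcnj10 reads was not tested.

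**Figure D1:**
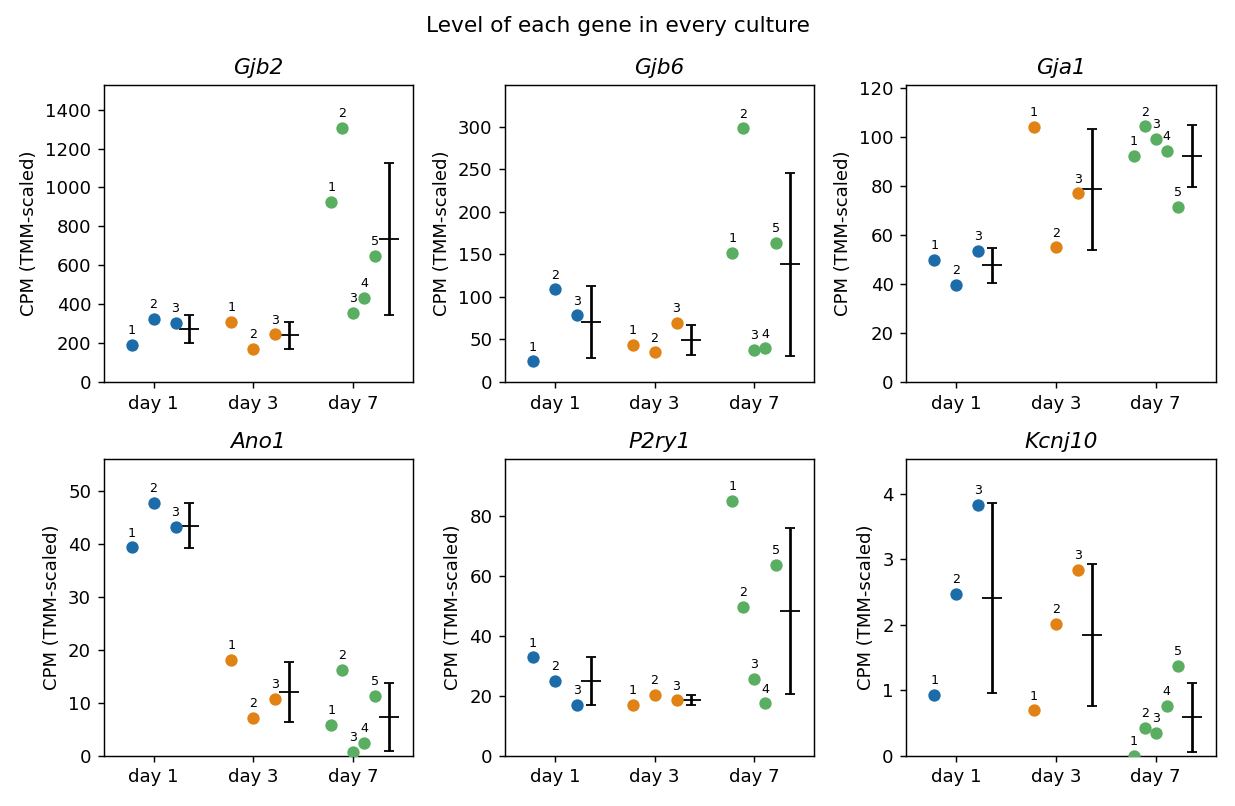
TMM-scaled CPM of each gene on a linear axis in every culture of days 1, 3 and 7; each point is 1 culture with its replicate number, and the black bar is the mean ± SD (n = 3, 3 and 5). Day 7 cultures 3 and 4 sit low for Gjb2, Gjb6, P2ry1 and Ano1, and the 3 cultures of day 1 sit highest for Ano1 and lowest for Gja1.

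Read against all genes, these counts were as follows. Between day 7 and day 1, 2 of the 6 members passed the test, where 7.11% of 17466 genes tested did. The cultures of 3 members did not overlap between those days (Gjb2, Gja1 and Ano1), where 17.8% of genes did not. Between day 3 and day 1, 0 members passed (0.0115% of all genes) and 2 did not overlap (Gja1 and Ano1, against 18% of all genes). Between day 7 and day 3, 0 members passed (0.968% of all genes) and Gjb2 alone did not overlap (8.13% of all genes). For the members, the unadjusted edgeR p was under 0.05 for Gja1 (0.0113) and Ano1 (0.0388) on day 3 against day 1, and for Gjb2 (0.00167), P2ry1 (0.0102) and Gjb6 (0.0442) on day 7 against day 3, in which DESeq2 called Gjb2 and P2ry1. The comparisons with day 7 share the same 5 cultures, and those with day 1 the same 3.

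The cells were deposited as 2 tables, which hold different cultures of each day. Within the first table Gjb2 went from 189 CPM in 1 culture of day 1 to a mean of 755 CPM in 4 cultures of day 7, and within the second from a mean of 315 CPM in 2 cultures to 648 CPM in 1. Gja1 went from 49.9 to 97.7 CPM in the first and from 46.5 to 71.4 CPM in the second. Ano1 went from 39.4 to 6.28 CPM in the first and from 45.6 to 11.3 CPM in the second. From day 1 to day 7 the directions of these genes were thus alike in both tables. From day 1 to day 3 Gjb2 went from 189 to 307 CPM in the first and from 315 to 206 CPM in the second. Gjb6 went from 24.2 to 43.2 CPM in the first and from 93.4 to 51.8 CPM in the second. The other members went the same way in both between those days. With 1 to 4 cultures a day neither table alone gave a call of a member.

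Gjb2 made up most of the summed transcript of the 3 connexin members in every culture. Other connexin genes, such as Gjc1, are not in this sum. Gjb2 made up 70.8% ± 3.26 of the summed connexin CPM per kb on day 1, 67.4% ± 3.23 on day 3 (SD, n = 3 each) and 76.3% ± 2.62 on day 7 (SD, n = 5). Gjb6 made up 19.1% ± 7.63, 16.0% ± 4.64 and 14.6% ± 5.86, and Gja1 10.1% ± 4.37, 16.7% ± 1.41 and 9.10% ± 5.01. Gjb2 held between 64.1% and 79.2% of the sum in every culture, while the remainder varied between Gjb6 and Gja1. In the 9 comparisons between days the smallest two-sided exact permutation p was 0.018 (Gjb2, day 7 against day 3, 76.3% against 67.4%), which is the smallest that 3 against 5 cultures can give, and 0 of 9 passed after adjustment for the number of tests.

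**Figure D2:**
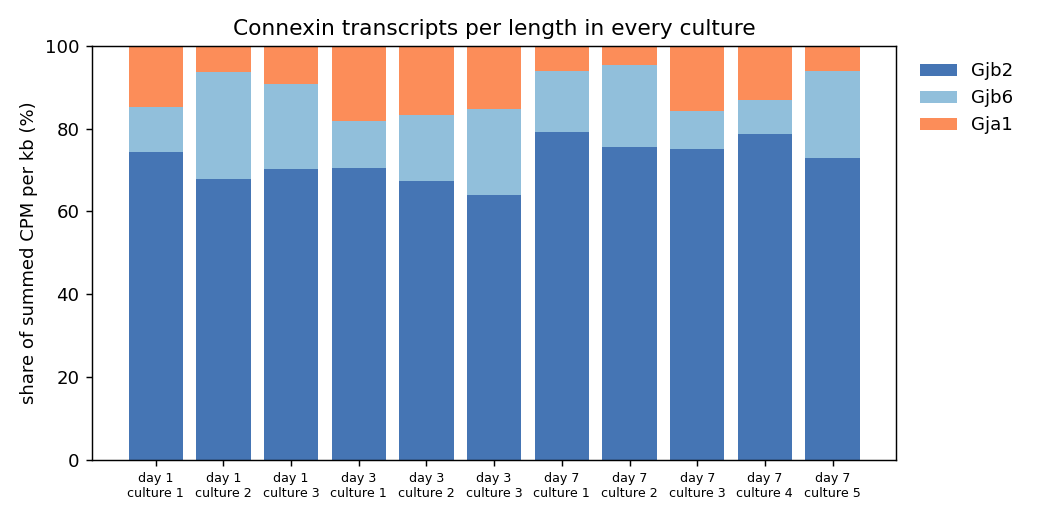
Share of Gjb2, Gjb6 and Gja1 (percent) in their summed CPM per kb of transcript, 1 stacked bar per culture. Gjb2 takes between 64.1% and 79.2% of every bar, and Gja1 takes its largest share, 18.1%, in day 3 culture 1.

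Single cells showed how the members were spread. With every cell thinned to 200000 reads, which left 695 cells (175, 222 and 298 by day), Gjb2 had a read in 95.8% of cells and Kcnj10 in 3.74%. Gja1 was read in 75.4%, Gjb6 in 52.1%, P2ry1 in 40.1% and Ano1 in 19.9%. Gjb2 was thus nearly universal, Gjb6 and P2ry1 were read in some cells and not detected in others of the same culture at this depth, and Kcnj10 was read in 26 cells. The median cell held 54 Gjb2 reads and 10 Gja1 reads at this depth.

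The Gjb2 share of cells was 92.3%, 95.3% and 92.1% on day 1, 96.4%, 84.8% and 97.2% on day 3, and 100%, 100%, 100%, 98.7% and 97.3% on day 7. The 5 cultures of day 7 all lay above the others, some by a narrow margin. The Gja1 share was 69.2%, 60.0% and 57.9% on day 1, 77.4%, 69.7% and 80.6% on day 3, and 92.3%, 83.8%, 91.3%, 84.6% and 66.7% on day 7. Day 7 culture 5 lay inside the day 1 range, and the other 4 cultures of day 7 lay above it. The Ano1 share was 40.4%, 44.7% and 39.5% on day 1, 15.5%, 13.6% and 20.8% on day 3, and 10.3%, 18.9%, 7.25%, 6.41% and 8.0% on day 7. Ano1 was therefore read in fewer cells on both later days, with every culture of days 3 and 7 below every culture of day 1.

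The Gjb6 share had means of 50.4% ± 17.0, 44.6% ± 8.43 (SD, n = 3 each) and 62.8% ± 20.7 (SD, n = 5), and day 7 cultures reached from 39.7% to 91.9%. The P2ry1 share had means of 37.7% ± 10.9, 31.2% ± 2.09 and 51.5% ± 17.7, with day 7 cultures between 26.9% and 74.4%. Both genes spread widest on day 7. The Kcnj10 share was 6.02% ± 3.55, 3.70% ± 1.16 and 2.15% ± 2.02, and day 7 culture 1 had 0 of 39 cells with a read, which allows a share of up to 7.69%. Shares did not overlap between day 3 and day 1 for Gja1 and Ano1 (17.9% of all genes tested), between day 7 and day 1 for Gjb2 and Ano1 (13.8%), and between day 7 and day 3 for Gjb2 (7.92%). By two-sided exact permutation tests the smallest p was 0.018 for Gjb2 on day 7 against day 1 (99.2% against 93.2%), for Gjb2 against day 3 and for Ano1 against day 1 (10.2% against 41.5%), the smallest that 3 against 5 cultures can give. None of the 18 tests passed after adjustment for their number, and 3 cultures against 3 cannot go below 0.1.

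**Figure D3:**
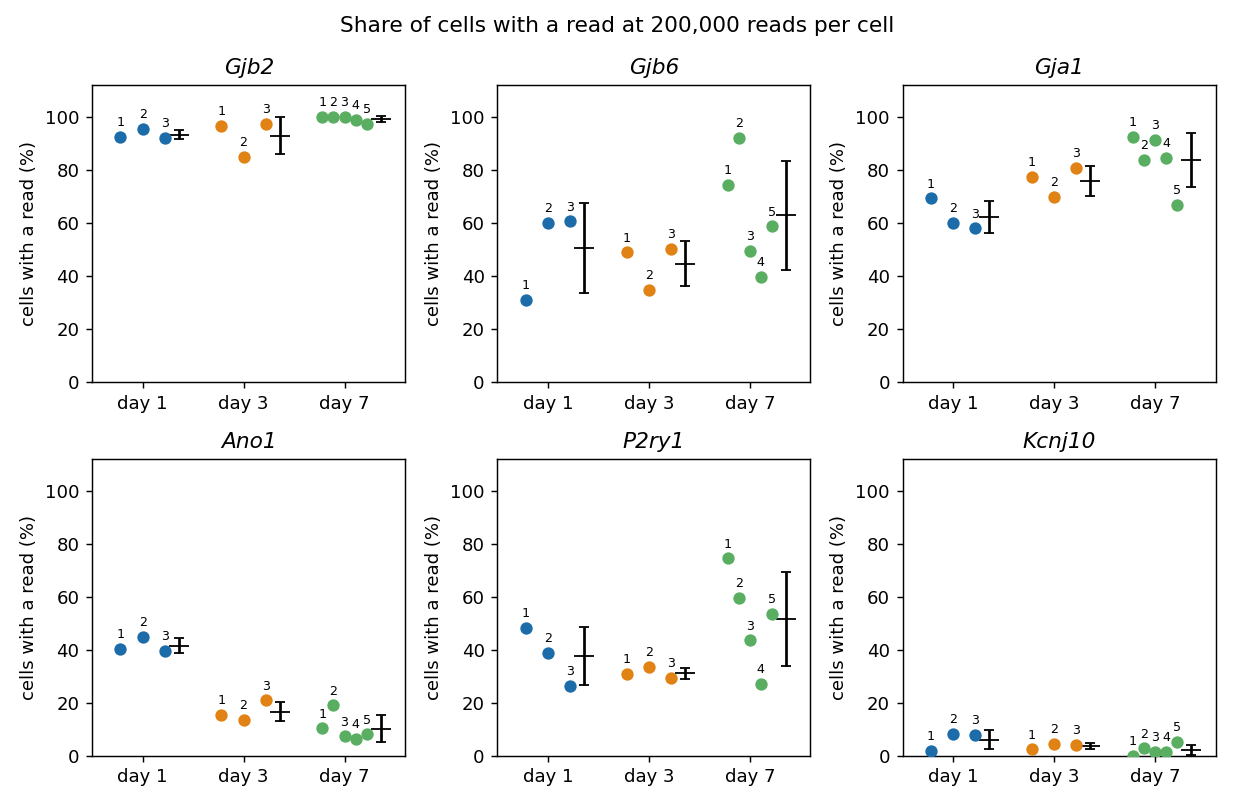
Percent of cells with at least 1 read of each gene after thinning every cell to 200000 reads, by culture (points, with replicate number) and as mean ± SD (black bar; n = 3, 3 and 5). Gjb2 sits at or above 84.8% throughout, and the Ano1 share lies between 39.5% and 44.7% on day 1 and between 6.41% and 20.8% later.

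Gjb6 reads came with Gjb2 reads. All 362 cells with a Gjb6 read also had a Gjb2 read, and 0 of the 29 cells without Gjb2 had Gjb6, which allows a share of up to 10.3%. Since Gjb2 was read in nearly all cells, most overlap of this kind is set by its breadth. For comparison, 14 of those 29 cells had a Gja1 read, 4 had an Ano1 read and 5 had a P2ry1 read. Without thinning, 2 of 397 cells with Gjb6 lacked Gjb2 and 395 had both. Where at least 5 reads of a gene were asked for at 200000 reads, 7 of 306 cells with Gjb6 lacked Gjb2. The reverse was not so: 304 of the 666 cells with Gjb2 had no Gjb6 read.

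Read numbers of the pair went together as well. Within a culture the Spearman correlation over cells between Gjb2 and Gjb6 reads averaged 0.49 and ranged from 0.26 to 0.78, with a positive value in 11 of 11 cultures. Gjb2 with Gja1 averaged 0.05, and Gjb6 with Gja1 averaged -0.07. Gjb6 with P2ry1 averaged 0.18 and Gjb6 with Ano1 0.17. Cells of a culture share its day and replicate number and were thinned to 1 depth, and values near 0 in such sparse counts say nothing. Of the 3 connexins, 269 cells (38.7%) had reads of all 3, 334 had 2, 77 had 1 and 15 had none. With Gjb2 read in 95.8% of cells, Gja1 in 75.4% and Gjb6 in 52.1%, such counts are largely set by the breadth of each gene. Whether the 3 came together beyond that was not tested. The share with all 3 was 29.7% of cells on day 1, 34.7% on day 3 and 47.0% on day 7, pooled over cultures and not tested.

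**Figure D4:**
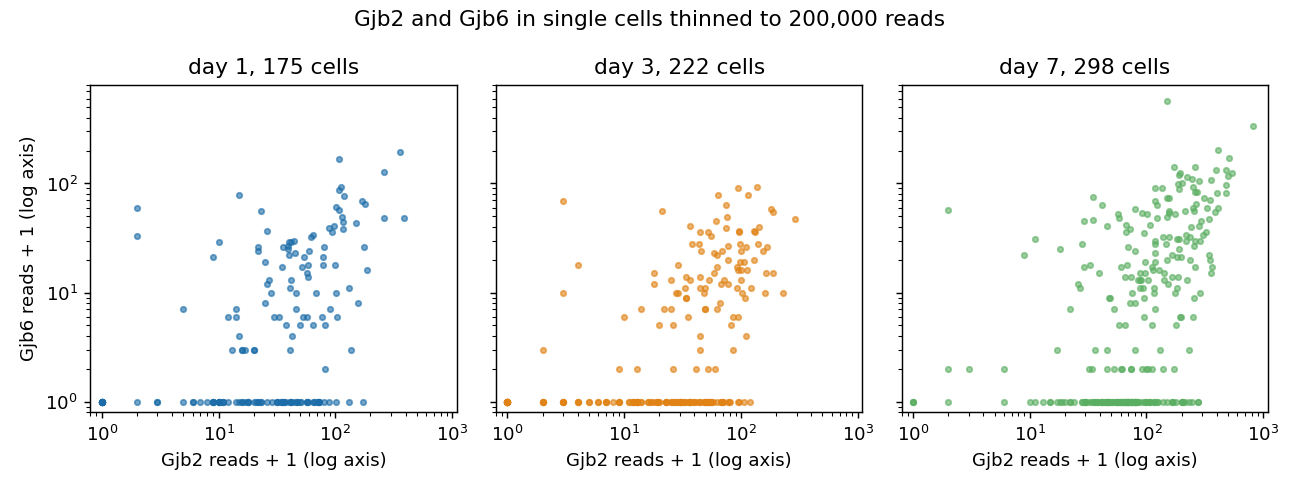
Gjb6 reads + 1 against Gjb2 reads + 1 in single cells thinned to 200000 reads, both on log axes, 1 point per cell and 1 panel per day (175, 222 and 298 cells). The points along the bottom edge are cells with Gjb2 but no Gjb6 read; the left edge, with no Gjb2 read, holds no cell with a Gjb6 read.

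Cycling cells differed from the other cells of the same culture in the members' levels. A cell was called cycling when it had a read in at least 3 of the 6 genes Mki67, Top2a, Cdk1, Birc5, Ccnb2 and Tpx2, which gave 347 cycling and 348 other cells. The cycling share was 20.4% ± 3.66 on day 1, 62.3% ± 5.46 on day 3 (SD, n = 3 each) and 56.5% ± 24.5 on day 7 (SD, n = 5). Day 7 cultures 3 and 4, with the lowest Gjb2, Gjb6, P2ry1 and Ano1 of that day, had the highest cycling shares, 87.0% and 74.4%, against 53.8%, 40.5% and 26.7% in cultures 1, 2 and 5.

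Gjb2 was lower in cycling cells in 10 of 11 cultures, by a mean of -0.48 in log2(CPM + 1) (two-sided exact sign-flip permutation p = 0.00293, n = 11). Gjb6 was also lower in 10 of 11 cultures, by -0.92 (exact permutation p = 0.00586), and averaged 54.9 CPM in cycling against 120.4 CPM in other cells. Gja1 went the other way and was higher in cycling cells in 10 of 11 cultures, by 0.59 (exact permutation p = 0.00195), with 93.7 against 62.7 CPM. The 3 connexins thus differed in direction between the classes, with Gjb2 and Gjb6 lower and Gja1 higher in cycling cells. P2ry1 was lower in 10 of 11 cultures, by -0.56 (exact permutation p = 0.0127), and Ano1 in 9 of 11, by -1.38 (exact permutation p = 0.0186). Kcnj10 was lower in 9 cultures and higher in 1, by -1.23 (exact permutation p = 0.00586), and was read in 7 of 347 cycling and 28 of 348 other cells without thinning. At such low levels the size depends on the 1 added before the log. With 0.1 or 10 added it was -2.73 or -0.25 for Kcnj10 and -1.72 or -0.66 for Ano1. At n = 11 the smallest p this test can give is 0.000977.

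In an edgeR fit over 13244 genes with the culture as a term, added after the data were seen, 5 of the 6 members passed, where 13.8% of all genes did. The log2 difference was -0.52 for Gjb2 (SE 0.10, adjusted p = 0.00238), -0.97 for Gjb6 (SE 0.23, adjusted p = 0.00948) and 0.56 for Gja1 (SE 0.16, adjusted p = 0.0265) by edgeR. For P2ry1 it was -0.63 (SE 0.20, edgeR adjusted p = 0.0489), and Ano1 did not pass at -1.79 (SE 0.62, edgeR adjusted p = 0.0721). Kcnj10 passed (edgeR adjusted p = 0.0307), but 5 cultures had 0 reads in cycling cells, so its fitted fold depends on the prior count and is not given.

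The Gjb2 and Gjb6 calls held without each of the 11 cultures in turn, with edgeR adjusted p up to 0.0103 and 0.0270. The Gja1 call was lost without day 1 culture 2 (0.0555) and without day 3 culture 2 (0.0669). P2ry1 held only without day 1 culture 1 (0.00958) and was lost without each of the others (0.0525 to 0.109). Kcnj10 was lost without day 1 cultures 1, 2 and 3 (0.0576, 0.0551 and 0.0596), day 3 cultures 1 and 3 (0.0720 and 0.0524) and day 7 cultures 2 and 3 (0.0600 and 0.0644), and was not tested without day 3 culture 2. Ano1 passed without day 7 culture 2 (0.0290), 1 of the 2 cultures in which it was higher in cycling cells. Cycling cells had slightly more genes detected at 200000 reads, a median of 6380 against 5777, and the part of this in the differences was not tested.

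No difference of these contrasts between days passed after adjustment (0 of 18 exact permutation tests, smallest unadjusted p 0.0714 for Kcnj10, day 7 against day 3). Among cells not called cycling, the log2 change of day 7 against day 1 was 1.58 for Gjb2, 0.92 for Gja1 and -2.43 for Ano1, with edgeR adjusted p of 0.109, 0.170 and 0.0981. Among cycling cells alone it was 1.51 for Gjb2, which passed there (edgeR adjusted p = 0.0398), 0.57 for Gja1 (0.284) and -2.32 for Ano1 (0.265). The signs were the same in both classes.

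**Figure D5:**
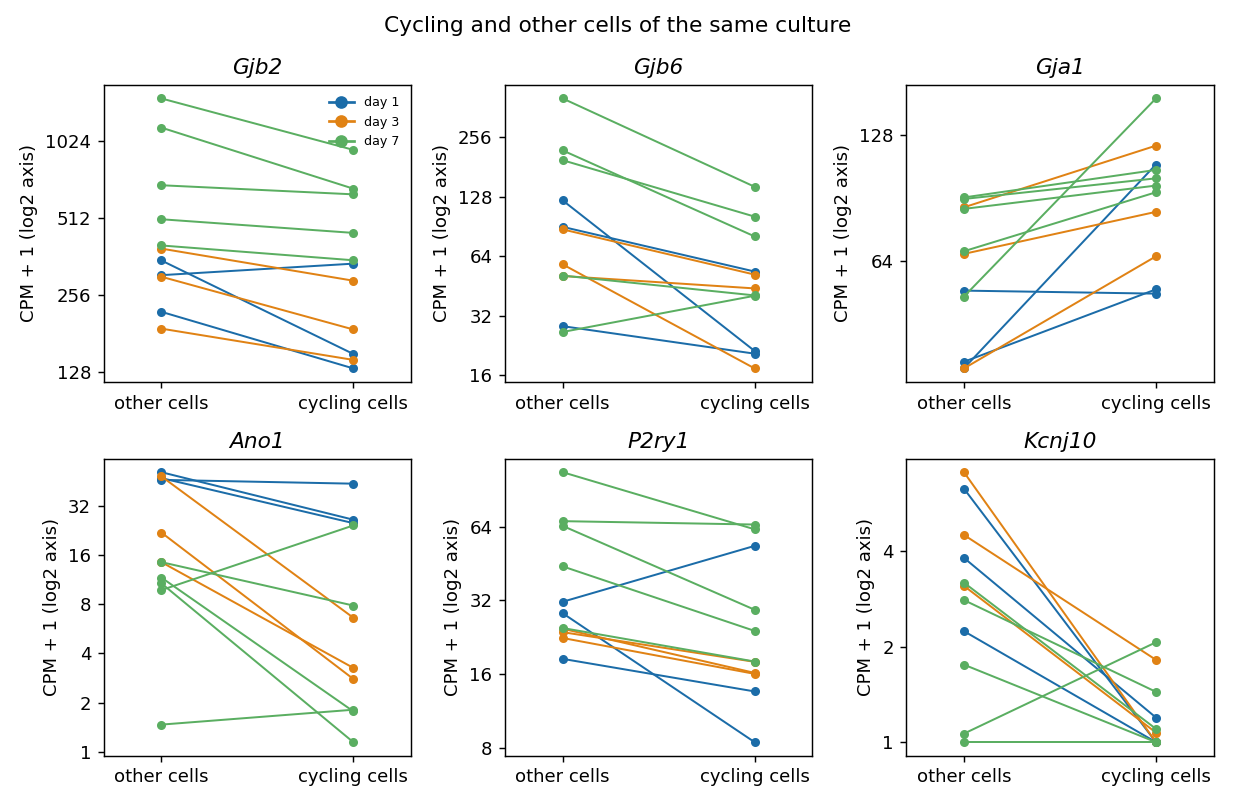
CPM + 1 on a log2 axis in other and in cycling cells, 1 line per culture, coloured by day. Lines run downward in 10 of 11 cultures for Gjb2, Gjb6 and P2ry1, upward in 10 of 11 for Gja1, and downward in 9 for Ano1 and Kcnj10.

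Other cell types could also carry these genes. Epithelial markers (Epcam, Cdh1, Krt8 and Krt18) were read in every culture, with a summed level of 2915 to 4973 CPM on day 1, 2982 to 4920 on day 3 and 1566 to 2456 on day 7. The GER markers Tecta, Tectb, Otoa, Calb1 and Fabp7 summed to 8889 to 13327 CPM on day 1, 3483 to 7258 on day 3 and 1847 to 3721 on day 7. Their sum was lower on day 7 than on day 1, when Gjb2 and Gja1 were high and Ano1 low. Taken singly, 4 of the 5 were lower and 1 higher on day 7 than on day 1, and 2 were called lower. Against day 3, 3 were lower and 2 higher, with 1 called lower. The sum weighs the most abundant markers most. Hair cell markers summed to 0 to 20.5, 10.4 to 89.5 and 0 to 4.11 CPM, and 13 cells had reads of at least 2 of them. Of these 13 cells 9 (69.2%) had Gjb2 and 5 (38.5%) had Gja1, against 96.3% and 76.1% of the other 682 cells. Without those 13 cells the log2 changes of day 7 against day 1 were 0.95 for Gja1 (edgeR adjusted p = 0.0246) and -2.61 for Ano1 (edgeR adjusted p = 0.0398).

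Of the other lists, Pecam1 and Kdr of endothelium, and Kcne1 and Esrrb of strial marginal cells, were at 0 in every culture, while Kcnq1 kept the marginal cell sum between 0 and 20.8 CPM. Immune markers summed to at most 3.66 CPM. The glial list summed to 46.4 to 88.0 CPM, almost all from Sox10 and Mbp, and at least 2 of its genes were read in 11 of the 26 Kcnj10 cells and in 225 of the other 669. With 2 genes giving almost all of the sum, cells that met this rule were not shown to be glia. The mesenchymal list summed to 186 to 1059 CPM, almost all from Dcn, and the part of these cells in the members' levels was not tested. In summed counts, fewer cells reading a gene and less RNA per cell cannot be told apart, and the shares above count cells by detection only.

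The genes around the members in the same pathway are given list by list. Of those called on day 7 against day 1, Ada alone was higher and the others were lower. On day 7 against day 1, 7.11% of all genes tested were called, in either direction. Of 20 other connexin and pannexin genes, 8 were tested, and 2 were called lower on day 7 than on day 1, Gja5 (2.24 to 0.0880 CPM, edgeR adjusted p = 0.0417) and Panx2 (0.719 to 0.00981 CPM, edgeR adjusted p = 0.0265), both at levels of few reads. The most abundant were Gjc1 at a mean of 55.8 CPM and Panx1, an ATP-permeable channel, at 30.6 CPM, and neither passed. The median log2 change over the 8 was -2.01, against 0.00 over all genes tested, and it includes genes such as Gja5 and Panx2 that could pass the filter on low counts only through earlier days.

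Of 17 other purinergic receptors, 8 were tested, with a median log2 change of -1.84 on day 7 against day 1. Some of these had few reads outside the early cultures, such as P2rx3 with 2.74 CPM on day 1 and 0.0448 on day 7, and could pass the filter on low counts only through them, so that median is partly set by the filter. P2ry2, a receptor for ATP and UTP, fell from 16.1 to 3.72 CPM (log2 -2.12, SE 0.52, edgeR adjusted p = 0.0296), and P2rx4, an ATP-gated cation channel, from 25.3 to 10.9 CPM (log2 -1.21, SE 0.30, edgeR adjusted p = 0.0315). P2rx2, the most abundant at a mean of 33.6 CPM, did not pass (log2 -1.96, edgeR adjusted p = 0.0863). P2ry1, with 24.9 CPM on day 1 and 48.3 on day 7, had the opposite sign to these 3 and did not pass either.

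Of 11 tested genes for nucleotide breakdown and nucleoside uptake, Ada, which encodes adenosine deaminase, rose from 1.85 to 9.73 CPM between day 1 and day 7 (log2 2.39, SE 0.56, edgeR adjusted p = 0.0262). The transporter genes Slc29a1 and Slc29a2, at means of 159 and 14.8 CPM, did not pass. Of 15 genes for Gq signalling and calcium stores, Plcb4, a phospholipase C downstream of Gq, fell from 53.7 to 21.9 CPM (log2 -1.30, SE 0.33, edgeR adjusted p = 0.0343). Gna11, at a mean of 97.0 CPM, and Atp2a2, the calcium pump of internal stores at 59.1 CPM, did not pass. The median log2 change was 0.28 in the first list and -0.12 in the second.

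Among 15 tested anoctamins, chloride and volume channels 0 passed, and Slc12a2, the sodium potassium chloride cotransporter that loads cells with chloride, had 136 CPM on day 1, 56.4 on day 3 and 82.0 on day 7. Clcn3 had a mean of 79.5 CPM and did not pass. Among 16 potassium channels and pumps, Atp1b2, a subunit of the sodium pump, fell from 37.8 to 11.5 CPM (log2 -1.71, SE 0.30, edgeR adjusted p = 0.00707), while the abundant subunit gene Atp1b1, at a mean of 489 CPM, did not pass. Median log2 changes were -0.08 and -0.15.

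Of 9 genes whose proteins bind connexins or share their junctions, 3 were called lower on day 7 than on day 1. Cdh1, which encodes E-cadherin, fell from 474 to 169.7 CPM (log2 -1.48, SE 0.34, edgeR adjusted p = 0.0242). Nov (Ccn3) fell from 4.34 to 0.00723 CPM and Cav1 from 1.51 to 0.00294 CPM, both with few reads on day 7. Both were also called against day 3 (edgeR adjusted p = 0.0218 and 0.00402), where 0.968% of all genes tested were. Both could pass the filter on low counts only through earlier days, so their calls are partly set by the filter. Ctnnb1, with a mean of 317 CPM, did not pass. No gene of the 7 lists was called on day 3 against day 1, where 2 of all genes tested were.

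Genes were also ranked by how closely their log2 CPM followed each member over the 11 cultures, several of which share a day. Hid1 (r = 0.97), Glt8d1 (0.95) and Ufl1 (0.94) were most like Gjb2, and Orai3 (0.92), Tspan3 (0.90) and Bnip3 (0.89) were most like Gjb6. For Gja1 they were Gfm1 (0.97), Nup107 (0.96) and Tdg (0.96), for Ano1 Mxd4 (0.93), Ctsd (0.92) and Grina (0.91), and for P2ry1 Thrb (0.92) and Kdsr (0.91). For Kcnj10 they were Socs2 (0.96), Vti1b and Glrx, at a mean Kcnj10 level of 1.42 CPM. Among the members themselves, Gjb2 and Gjb6 were most alike (r = 0.84), then Gjb2 and P2ry1 (0.72). P2ry1 and Kcnj10 (-0.66) ran most opposite, then Gja1 and Ano1 (-0.63), Gjb2 and Kcnj10 (-0.61) and Gja1 and Kcnj10 (-0.60). The genes named for each member are the best matches of about 6597 genes, and all are given as likeness only.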

How the data were processed

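RNA of single hand-picked cells was read by SmartSeq2, per the labels' protocols, and each value is the deposited expected count of a gene in a cell. STAR 2.5.3a, RSEM 1.3.0 and the mouse builds mm10 and GRCm38 are named in the submitters' processing notes. Expected counts were rounded, and cells with at least 50000 reads, at least 1500 genes and at most 20% mitochondrial reads were kept. Counts were summed per culture, the day and replicate number of the labels, and tested with edgeR 4.0.16 (R 4.3.3; TMM scaling, filterByExpr, quasi-likelihood test, all 11 cultures in 1 fit, Benjamini-Hochberg over all genes, called at an adjusted p under 0.05). DESeq2 1.42.0 and limma 3.58.1 were alternatives. CPM are TMM-scaled, and lengths are those of the longest coding transcript in GENCODE. Cells were thinned to 200000 reads for shares and classes. Exact permutation tests used scipy 1.17.1. The fits were tested on simulated data. The edgeR fit of cycling against other cells, the fit of cycling cells alone and that without hair cell markers were added after the data were seen. Members and lists were chosen with earlier results of these data known. Named genes are the 6 members, per list and comparison up to 3 called genes with the smallest adjusted p and the 2 with the highest mean CPM, and per member the 3 genes (mean CPM at least 20) most correlated over cultures. Some genes this rule selects are not reported here. Intervals and limits for 0 cover counting error only.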

Additional observations from a re-analysis of the deposited data

Results flagged for a closer look

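On day 7 the log2 difference of Gja1 between cycling and other cells was 1.58 in culture 2, far above the other 4 cultures, which lay between 0.16 and 0.47. This culture had 15 cycling cells and 22 others, with Gja1 at 155.9 CPM in the first and 51.5 CPM in the second. Among 21 groups of 4 or more cultures examined in this way 1 stood out, and 1 of so many can arise by chance, at a rate that was not measured. Only day 7 has 4 or more cultures, so the groups share the same cultures.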

How the results depend on the processing

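On day 7 against day 1, 2 members were called (Gja1 and Ano1). DESeq2, limma and edgeR without the filter on low counts called both and also Gjb2 (adjusted p = 0.00267, 0.0294 and 0.0425). With the replicate block and with only the 2 days compared 1 was called (Gja1), with cycling cells alone 1 (Gjb2), and 0 with the deposited table as a term, in either table alone, or in cells not called cycling. Leaving out 1 culture gave between 0 and 2. On day 7 against day 3 (0 members called) DESeq2 called 2, and leaving out 1 culture gave between 0 and 1. For cycling against other cells, where 6 members passed adjusted over the 6 alone, edgeR over all genes without 1 culture called between 2 and 4. No member changed direction on day 7 against day 1 under any of 25 alternatives (24 for Kcnj10); Gja1 was called in 15 and Ano1 in 11 of them, and Gjb2 in 6. Whether the replicate numbers pair the cultures was not settled. Deviations of same-numbered cultures correlated between -0.01 and 0.06, mostly above 0, and those of other cultures between -0.09 and 0.07. Over all genes, the counts called by edgeR on day 7 against day 1 were 1241, against 2317 by DESeq2, 179 in cells not called cycling, 676 in cycling cells, 15 and 125 in the 2 tables alone, and 436 to 1380 without 1 culture. On day 3 against day 1 they were 2, against 259 by DESeq2, 69 by limma, 22 with the replicate block, 13 without the filter and 0 to 5 without 1 culture. On day 7 against day 3 they were 169, against 645 by DESeq2, 96 with the block, 102 with the table as a term, 66 and 13 in the 2 classes, and 35 to 174 without 1 culture. The causes were not tested. Kcnj10 values rest on reads in 26 cells at 200000 reads.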
